A study of Mus musculus with 12 samples.

Results

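Cd5l, the gene followed here, encodes a secreted protein of tissue macrophages and was 1 of the 55573 genes counted in poly(A) RNA-seq of 12 mouse embryonic fibroblast (MEF) libraries. It was chosen by its log2 fold change in induced against uninduced cells, where its RNA was higher, and its row was found by the Ensembl identifier ENSMUSG00000015854. All libraries came from C57BL/6 embryos at E13.5, carrying doxycycline-inducible Oct4, Sox2, Klf4 and cMyc (OSKM), the factors that can turn fibroblasts into induced pluripotent stem (iPS) cells. Cells of 3 clones, numbered in the labels and each made from a separate embryo, were grown in iPS cell medium for 72 h in 4 groups. MEF received neither agent, MEF+B12 received 2 µM vitamin B12, OSKM received doxycycline at 1 µg/ml as the labels give it (the study's methods give the unit as mg/ml), and OSKM+B12 received both. Each group held 1 library of each clone. Doxycycline was given to the induced groups only, so the drug and the factors cannot be told apart, and the same clone was used in every group, which makes comparisons within a clone possible. The sample titles of clone 1 carry a later year than those of clones 2 and 3.

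The libraries held between 56971244 and 79236795 counted fragments. Pou5f1, which encodes Oct4, lay between 2.33 and 20.7 CPM (counts scaled to library size by the trimmed mean of M values) in the 6 induced libraries and at or below 0.468 CPM in the other 6. Mean levels in MEF and OSKM were 0.519 and 10.4 CPM for Sox2 and 19.2 and 39.1 CPM for Myc. Klf4 was not higher, at 135 and 121 CPM. The 12 fibroblast genes examined summed to between 92923 and 146204 CPM. The 25 general macrophage genes summed to between 2271 and 4906 CPM in the 12 libraries, so macrophage RNA was present in every culture. The OSKM library of clone 1 stood apart in pseudogenes, where 120 of 1519 differed more than 2-fold from the mean of the clone's other libraries, against at most 9 in any other library. Leaving it out gave Cd5l a log2 fold change of 2.50 ± 0.33 (SE) in OSKM against MEF, beside 2.59 ± 0.31 with it, and an average B12 effect of 1.06 ± 0.22, beside 1.00 ± 0.20.

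Cd5l, also called apoptosis inhibitor of macrophages (AIM) or Spα, belongs to the scavenger receptor cysteine-rich (SRCR) family. It is made by resident macrophages, such as Kupffer cells of the liver and macrophages of the spleen and peritoneum, and circulates in the blood bound to pentameric IgM. The protein can be taken up through the fatty acid transporter Cd36 and is known to bind fatty acid synthase inside cells. Its transcription in macrophages is known to depend on the liver X receptors (LXR), nuclear receptors that sense oxysterols.

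In GRCm38 the gene lies on the forward strand at chr3:87357881-87371073, in 6 exons of 2036 bases in all, with 1 annotated protein-coding transcript and no other gene overlapping it. The coding parts of exons 3, 4 and 5 measured 321, 339 and 321 bases and are known to encode the SRCR repeats. None of its 2006 stretches of 31 bases occurred in another annotated gene, so no annotated close copy shares its reads. The 250 bases just upstream of its start site, from RefSeq on GRCm38.p6 (chr3:87357631-87357880, forward strand), are shown because genes that act on Cd5l in macrophages are described with it. Capitals mark the letters of a core site of PU.1, a transcription factor of macrophages, on the reverse strand.
Cd5l upstream: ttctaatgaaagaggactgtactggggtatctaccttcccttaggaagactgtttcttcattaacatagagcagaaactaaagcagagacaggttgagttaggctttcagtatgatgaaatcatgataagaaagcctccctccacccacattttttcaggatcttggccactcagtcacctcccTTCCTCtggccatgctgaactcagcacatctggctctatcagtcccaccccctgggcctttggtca
The PU.1 core GAGGAA, searched on both strands, stood 66 bases before the start site, and the same letters were found in 23.3% of promoters. Of the 19 general macrophage genes with a promoter sequence, 13 had the letters in any of their promoters. That count is by gene and the percentage by promoter, so they cannot be compared directly. The direct repeat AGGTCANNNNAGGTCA to which LXR binds had no match here, and 5 promoters (0.0152%) held it. A match is a run of letters, and binding was not measured.

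Cd5l RNA was lowest in untreated MEFs. In MEF it was 1.44 CPM in clone 1, 3.18 CPM in clone 2 and 0.978 CPM in clone 3. In MEF+B12 the clones gave 1.88, 8.87 and 2.59 CPM. In OSKM they gave 8.35, 27.8 and 3.03 CPM, and in OSKM+B12 13.7, 43.5 and 7.10 CPM. Clone 2 was the highest in all 4 groups, and clone 3 was the lowest in all but MEF+B12, where clone 1 lay below it. Counts were 62 to 201 in MEF and 462 to 2703 in OSKM+B12, so counting error was small beside the spread between clones (83 counts in MEF of clone 1 had an exact 95% interval of 66.1 to 103).

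**Figure D1:**
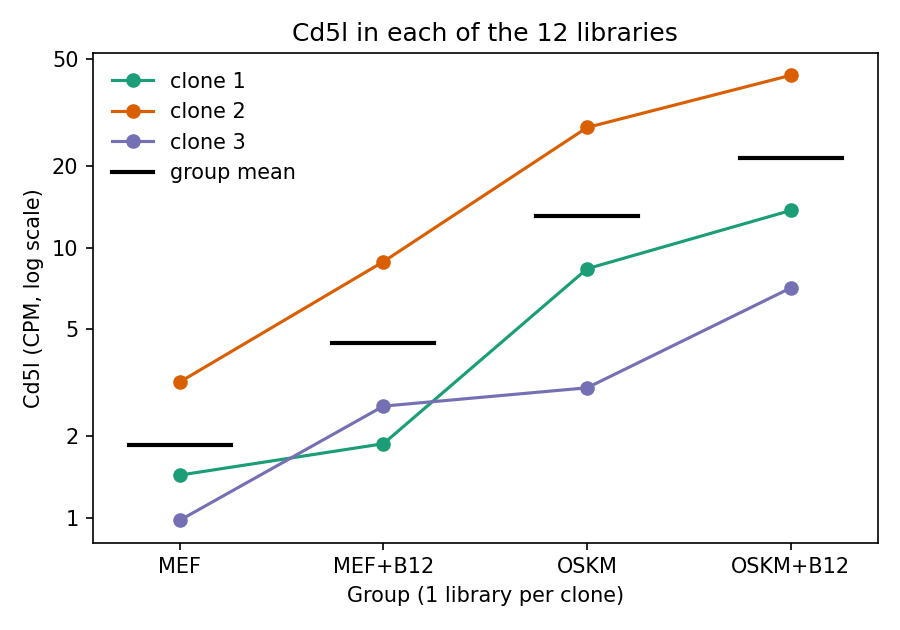
Cd5l in CPM (log axis) in the 4 groups, with a coloured line for each clone and a black bar for the group mean. In every clone the level was lowest in MEF and highest in OSKM+B12, and clone 2 was the highest throughout.

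Within every clone the order was MEF, MEF+B12, OSKM and OSKM+B12, from low to high. Group means were 1.86 ± 1.16, 4.44 ± 3.85, 13.1 ± 13.1 and 21.4 ± 19.4 CPM (SD, n = 3 clones). Every neighbouring pair of groups in this order overlapped across clones. Even OSKM of clone 3, at 3.03 CPM, lay below MEF of clone 2, at 3.18 CPM. The same order in every clone was seen in 12 of 19174 genes tested (0.0626%), and in 0 of the 25 general macrophage genes. Because induction was used to choose Cd5l, this is a description.

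Cd5l was higher after induction in each clone. OSKM was 5.81-fold above MEF in clone 1, 8.76-fold in clone 2 and 3.10-fold in clone 3. With B12 on both sides the folds were 7.31, 4.90 and 2.74. The log2 fold change was 2.59 ± 0.31 (SE) without B12 and 2.19 ± 0.27 with it, which ranked Cd5l 45th and 74th of the 19174 genes by size. The comparison used to choose the gene called 14 genes higher (0.073%) and 0 lower, and the comparison with B12 called 20 higher (0.104%) and 0 lower. DESeq2 called 487 and 416 genes in them, both directions together. The clone with the smallest induction of Cd5l was clone 3. In that clone induced Pou5f1 was also lowest, at 2.86 CPM in OSKM against 19.3 CPM in clone 1 and 18.5 CPM in clone 2, and the part of this in the Cd5l difference was not tested.

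No gene of the general macrophage list was called on induction without B12. Lyz2, the lysozyme of myeloid cells, gave 1455, 992 and 739 CPM in MEF and 1331, 843 and 754 CPM in OSKM of clones 1, 2 and 3. Adgre1, which encodes the macrophage surface marker F4/80, gave 125, 86.6 and 64.7 CPM in MEF and 91.1, 67.7 and 65.7 CPM in OSKM. Their log2 fold changes were −0.11 ± 0.11 and −0.27 ± 0.10 (adjusted p = 0.598 and 0.215, edgeR quasi-likelihood test with Benjamini-Hochberg adjustment). Lyz2 shared 32.8% of its stretches of 31 bases with other genes, so its counts are less certain than those of Adgre1, which shared none.

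Across the list, 0 of 25 macrophage genes passed the test in either direction in OSKM against MEF (background 0.073% higher and 0% lower), with 8 at an unadjusted p under 0.05 (19% of all genes were) and 0 called by DESeq2. Their median log2 fold change was −0.16, against −0.01 over all genes, and 5 of the 25 lay above 0. The range ran from −0.69 for Cx3cr1, the fractalkine receptor, to 0.29 for Itgam, an integrin of myeloid cells for which 68.1% of stretches were shared. With B12 on both sides 0 of 25 passed by edgeR, with 10 at an unadjusted p under 0.05 (14.9% of all genes were). DESeq2 called Itgam higher and Trem2 lower, 2 in all. The median was −0.21, again with Cx3cr1 lowest and Itgam highest, at 0.45. The values of Cd5l in the same comparisons were 2.59 and 2.19.

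**Figure D2:**
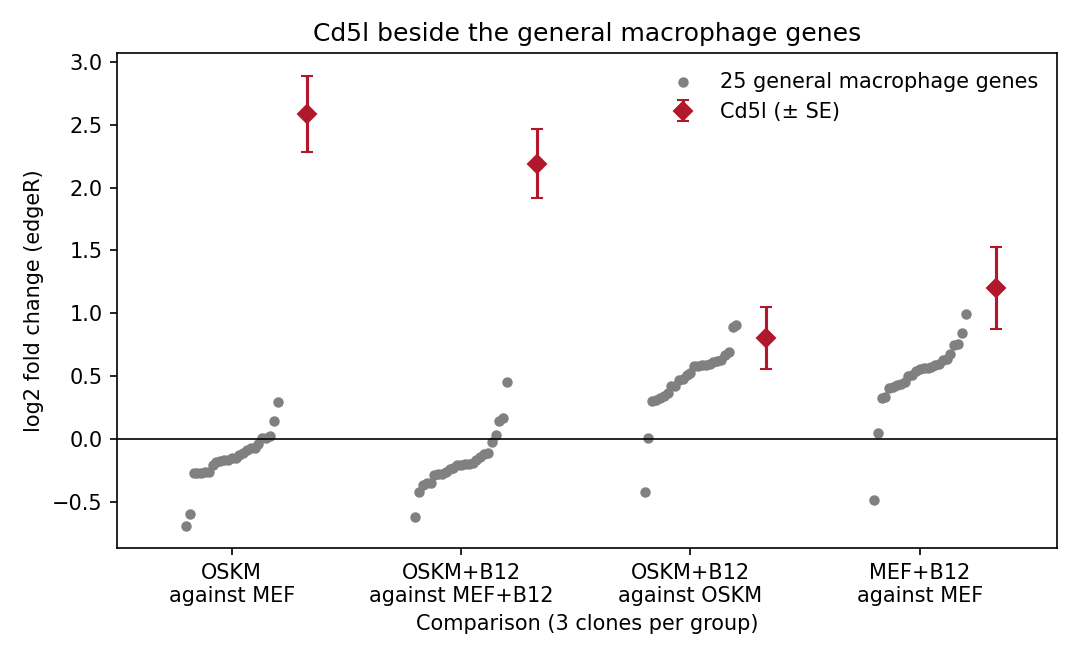
Fitted log2 fold changes in 4 comparisons, with grey points for the 25 general macrophage genes ordered by size and a red diamond for Cd5l with its SE. In both inductions Cd5l lay above every grey point, at 2.59 and 2.19 against at most 0.29 and 0.45. In the B12 comparisons it was at 0.81 within OSKM, below the highest macrophage genes, and at 1.20 within MEF.

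Compared per length, as RPKM (CPM divided by exon length in kilobases), Cd5l had a mean of 0.916 RPKM in MEF and 10.5 RPKM in OSKM+B12. Adgre1 had 28.4 and 35.4 RPKM and Lyz2 807 and 969 RPKM in the same groups. In MEF the mean of Cd5l lay below those of all 25 general macrophage genes, while in OSKM+B12 it lay above 7 of them (Aif1, Cx3cr1, Fcgr1, Itgam, Mertk, Ptprc and Trem2). As a share of the summed CPM of the 25 macrophage genes, Cd5l ranged from 0.0382% in MEF of clone 1 to 1.14% in OSKM of clone 2. Clone 1 had the highest macrophage sum in MEF, at 3762 CPM against 2886 CPM in clone 2 and 2276 CPM in clone 3, but clone 2 had the highest Cd5l. Cells were measured in bulk, so fewer macrophages and less RNA in each macrophage cannot be told apart. The log2 ratio of Cd5l to the mean of the macrophage genes was higher by 2.57 ± 0.89 (SD, n = 3) on induction and by 2.38 ± 0.92 on induction with B12.

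**Figure D3:**
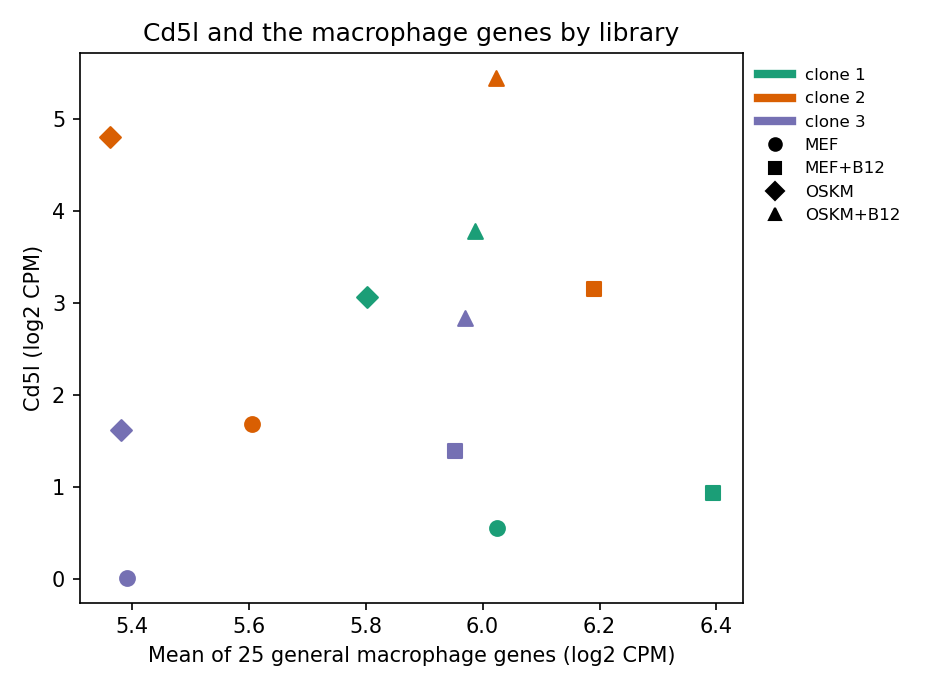
Cd5l against the mean of the 25 general macrophage genes, both in log2 CPM, with clones by colour and groups by symbol. At either B12 setting the induced library of a clone lay above the uninduced one, at a similar or lower macrophage level, and the macrophage mean stayed between 5.36 and 6.39 log2 CPM.

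Cd5l was also higher with vitamin B12. Adding B12 to uninduced cells changed it 1.31-fold, 2.79-fold and 2.65-fold in clones 1, 2 and 3, and adding it to induced cells changed it 1.64-fold, 1.56-fold and 2.34-fold. All 6 pairs moved up, which 8% of tested genes did. The average B12 effect was a log2 fold change of 1.00 ± 0.20 (adjusted p = 0.0191, edgeR), in a comparison that called 663 genes higher (3.46%) and 73 lower (0.381%). Without clone 2 it was 0.94 ± 0.28 and no longer passed (adjusted p = 0.330). Over all genes 34 passed in that fit, against 736 in the main one.

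Within each state the B12 effect did not pass the threshold. It was 0.81 ± 0.25 in induced cells (adjusted p = 0.249, edgeR), where 201 genes were called higher (1.05%) and 3 lower (0.0156%), and 1.20 ± 0.32 in uninduced cells (adjusted p = 0.132, edgeR), where 263 were called higher (1.37%) and 1 lower (0.00522%). These comparisons share the OSKM or the MEF libraries with the one that chose the gene, so their p-values are not independent of that choice. Both passed when genes with low counts were kept (adjusted p = 0.0158 and 0.00395, edgeR) and when only the groups compared were fitted (adjusted p = 0.0345 and 0.0136, edgeR). The B12 effect in induced cells minus that in uninduced cells was −0.40 ± 0.41 on the log2 scale. It equals the induction effect with B12 minus the one that chose the gene, so it is a description. Over all genes 0 passed this interaction test in edgeR, with 273 at an unadjusted p under 0.05 and 0 called by DESeq2.

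The general macrophage genes were higher with B12 too. In the average B12 comparison 22 of 25 passed, all upwards and against 3.46% of all genes, and the median over the list was 0.52 on the log2 scale (−0.01 over all genes). Fcgr1, the high-affinity IgG receptor, rose most in this list (0.95 ± 0.10, adjusted p = 0.00044, edgeR), and Mrc1, the mannose receptor, rose by 0.86 ± 0.08 (adjusted p = 0.000206). Lyz2 rose by 0.43 ± 0.08 and Adgre1 by 0.63 ± 0.07 (adjusted p = 0.0085 and 0.000779, edgeR). Mertk, Aif1 and Cx3cr1 did not pass, at 0.03, 0.42 and −0.45. Without clone 2 only 1 of the 25 passed, and without clone 3 it was 12. Over all genes 34 and 317 passed in those fits, against 736 in the main one. In induced cells 11 of 25 passed and were higher with B12 (median 0.53, against 1.05% of all genes), and in uninduced cells 14 of 25 (median 0.55, against 1.37%).

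Set against those genes, the B12 rise of Cd5l was not resolved. The log2 ratio of Cd5l to their mean was higher with B12 by 0.27 in clone 1, 0.43 in clone 2 and 0.72 in clone 3, a mean of 0.48 ± 0.23 (SD, n = 3; exact sign-flip permutation test, two-sided, p = 0.25, the smallest that 3 clones allow). The clones differed in where this lay. In induced cells the difference was 0.53 in clone 1, −0.02 in clone 2 and 0.63 in clone 3, and in uninduced cells it was 0.01, 0.89 and 0.82. The summed macrophage CPM was 2276 to 3762 in MEF, 3351 to 4906 in MEF+B12, 2271 to 3446 in OSKM and 3405 to 3925 in OSKM+B12, with none of the 25 genes at 0 counts throughout a group. With the macrophage mean as a covariate the average B12 effect on Cd5l was 1.39 ± 0.49 and did not pass (adjusted p = 0.745, edgeR). That mean itself rose with B12, by 0.49 on average, and 0 of all genes passed in this fit, against 736 in the main one. The lack of a call there therefore says little about Cd5l.

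Genes of resident macrophages, the cells known for Cd5l, were mixed. Of 14 on the list 10 passed the filter on low counts, and 0 passed the edgeR test in either induction, with 3 at an unadjusted p under 0.05 in each (19% and 14.9% of all genes were). DESeq2 called 1 of them, Timd4, in OSKM against MEF, and 0 with B12. Timd4 would not have passed the filter on low counts without its induced libraries, so its call is a description. In OSKM against MEF 7 of the 10 had a log2 fold change above 0, with a median of 0.06 (−0.01 over all genes). With B12 on both sides it was 5 of the 10, with a median of 0.035. Without B12 Timd4 was highest, at 2.80 ± 0.64, while Gata6 was lowest, at −0.27 ± 0.08, and Vcam1 was at −0.24 ± 0.09. Timd4, a phosphatidylserine receptor of resident macrophages, was scarce, at 0.0346, 0.111 and 0 CPM in MEF, 0.231, 0.189 and 0.103 CPM in MEF+B12, 0.415, 0.605 and 0.0385 CPM in OSKM, and 0.500, 1.29 and 0.0768 CPM in OSKM+B12. Its induced libraries were the higher ones in clones 1 and 2, and in clone 3 the level with B12 was lower after induction. The Kupffer cell lectin Clec4f had 0 counts in 11 of the 12 libraries, and Vsig4 and Cd163, both of resident macrophages, stayed at or below 0.177 CPM. With B12, on average, 4 of the 10 were higher and 0 lower (3.46% and 0.381% of all genes were). Marco, a scavenger receptor with an SRCR domain, rose by 1.47 ± 0.29 (adjusted p = 0.0148, edgeR), Hmox1, which degrades haem, by 0.75 ± 0.04, the folate receptor Folr2 by 0.69 ± 0.09 and the sialic acid receptor Siglec1 by 0.65 ± 0.08.

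Among the upstream regulators, no receptor or factor was called by edgeR on induction. Over all genes 0.073% were called higher without B12 and 0.104% with it, and 0% lower. The cultures were measured in bulk, so the values of these genes cannot be assigned to the macrophages. Nr1h3, which encodes LXRα, was 3.15, 3.94 and 2.65 CPM in MEF and 4.24, 4.46 and 2.85 CPM in OSKM, a log2 fold change of 0.24 ± 0.11 (adjusted p = 0.276, edgeR). All 5 LXR and retinoid X receptor genes were tested, and 0 passed in any comparison by edgeR or DESeq2. By edgeR at most 3.46% of all genes were called higher in a comparison and 0.381% lower, so 0 of 5 does not set these receptors apart. At most 1 of the 5 had an unadjusted p under 0.05 in each comparison (1.42% to 19% of all genes did). Of the 12 LXR target genes other than Cd5l 11 were tested. On induction 0 passed in either comparison, with 5 at an unadjusted p under 0.05 in each (19% and 14.9% of all genes), while DESeq2 called 2 (Smpdl3a higher, Arl4c lower) without B12 and 3 (Scd1 higher, Apoe and Arl4c lower) with it. The median log2 fold changes were 0.04 and 0.03. In the average B12 comparison 0 of the 11 were higher and 2 were lower (3.46% and 0.381% of all genes were). These were Abcg1, a cholesterol exporter (−0.49 ± 0.10, adjusted p = 0.0181, edgeR), and Apoe, the lipoprotein component (−0.27 ± 0.06, adjusted p = 0.0384).

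Of the 10 macrophage transcription factors 9 were tested, and 0 passed in either induction, with 4 and 3 at an unadjusted p under 0.05 (19% and 14.9% of all genes), while DESeq2 called 1, Runx1, lower in both. On average 4 of the 9 were higher with B12, against 3.46% of all genes. Tfec rose by 1.08 ± 0.16, Spi1, which encodes PU.1 and is also on the general macrophage list, by 0.66 ± 0.09, Irf8 by 0.44 ± 0.08 and Maf by 0.30 ± 0.04 on the log2 scale.

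Of the genes whose products handle the Cd5l protein, Cd36 stood at 60.8, 54.4 and 31.7 CPM in MEF and 68.6, 49.6 and 31.7 CPM in OSKM (log2 fold change 0.02 ± 0.14). With B12 it rose by 0.87 ± 0.10 (adjusted p = 0.000659, edgeR). Fasn, the fatty acid synthase gene, was at −0.09 ± 0.09 on induction and −0.08 ± 0.06 with B12 and passed neither test. Havcr1, the kidney uptake receptor, had 0 counts in all libraries. Of 14 other SRCR family genes 10 were tested, and 0 passed in either induction by edgeR, with 7 and 6 at an unadjusted p under 0.05 (19% and 14.9% of all genes). DESeq2 called 1 lower in each, Loxl3 without B12 and Loxl4 with it. The median log2 fold changes were −0.15 and −0.13, and 3 and 4 of the 10 lay above 0. Scara5 was highest in both, at 0.80 and 0.98, and did not pass. It gave 98.1, 122 and 101 CPM in MEF and 215, 262 and 112 CPM in OSKM of clones 1, 2 and 3. On average 2 of the 10 were higher with B12 (3.46% of all genes were). These were Marco and the macrophage scavenger receptor Msr1 (0.84 ± 0.07, adjusted p = 0.000173, edgeR).

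Of the genes beside Cd5l on the chromosome, those nearest on each side were not called on induction and were higher with B12. Fcrls, an Fc receptor-like gene of macrophages and microglia that lies 94142 bases before Cd5l on the opposite strand, gave 77.3, 52.6 and 44.9 CPM in MEF and 53.7, 34.7 and 41.1 CPM in OSKM. Fcrl1 starts 5313 bases after Cd5l on the same strand and encodes an Fc receptor-like protein of B cells. It gave 0.883, 1.36 and 0.694 CPM in MEF and 0.326, 0.933 and 0.590 CPM in OSKM. Their log2 fold changes on induction were −0.42 ± 0.10 and −0.72 ± 0.30 (adjusted p = 0.159 and 0.237, edgeR). With B12 they rose on average by 0.59 ± 0.07 and 1.19 ± 0.20 (adjusted p = 0.000884 and 0.00575, edgeR).

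**Figure D4:**
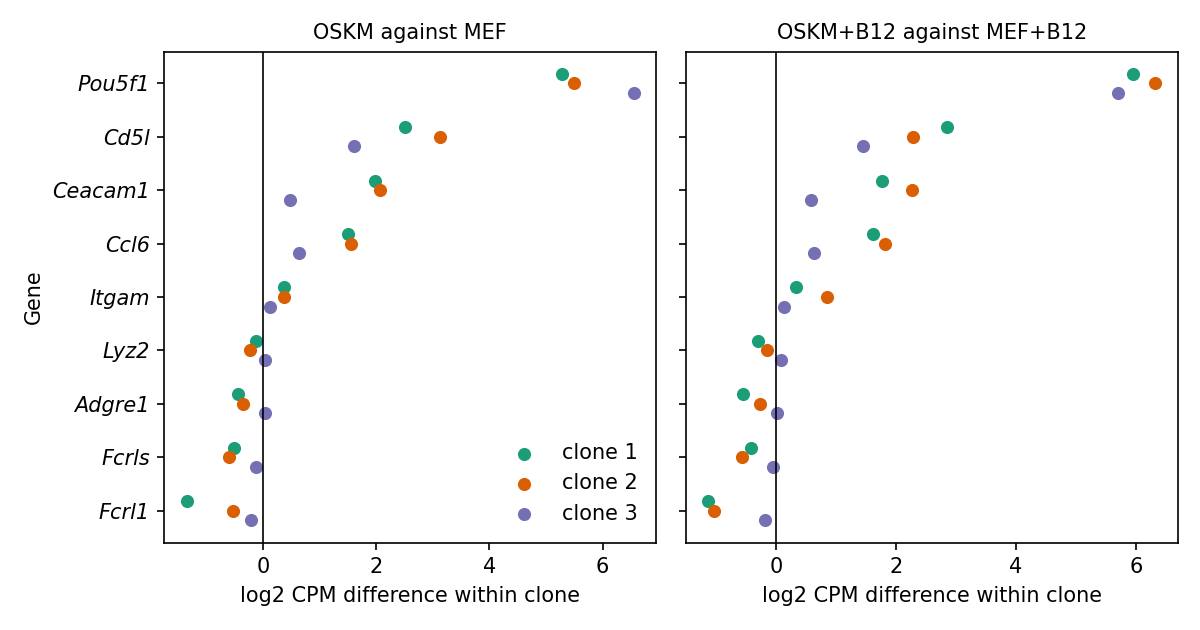
Log2 CPM difference on induction within each clone (points coloured by clone) for 9 genes, without B12 on the left and with B12 on the right. Pou5f1 and Cd5l lay above 1 in every clone, while Lyz2, Adgre1 and the neighbours Fcrls and Fcrl1 lay near or below 0.

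The pattern most like that of Cd5l was that of Ccl6, a chemokine of macrophages. After each clone mean was removed, log2 CPM of Ccl6 and Cd5l gave a Pearson r of 0.977 over the 12 libraries, which share 3 clones, the highest of 11639 genes ranked. Ccl6 was 50.4, 18.1 and 8.56 CPM in MEF, 50.5, 24.5 and 12.9 CPM in MEF+B12, 142, 53.3 and 13.2 CPM in OSKM and 155, 86.6 and 19.9 CPM in OSKM+B12. Unlike Cd5l it was highest in clone 1 in every group, so that with clone means kept r was 0.59. Its induction difference in log2 CPM was 1.49 in clone 1, 1.56 in clone 2 and 0.62 in clone 3, which again had the least. Slc5a6, a vitamin transporter gene, came next (r = 0.971), with an induction log2 fold change of 0.21 beside the 2.59 of Cd5l. Ceacam1, a cell adhesion gene, followed (r = 0.967), with an induction log2 fold change of 1.63, and 37.5% of its stretches were shared with other genes. The others of the 10 were Rpa1, Cacybp, Ncaph2, Wdr43, Ormdl2, Mlf1 and Setd6, at r of 0.946 to 0.965.

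Markers of other cell types were examined as well. Monocyte and neutrophil genes summed to 4.78 to 8.76 CPM in MEF, 4.58 to 8.71 CPM in MEF+B12, 7.71 to 11.1 CPM in OSKM and 7.07 to 9.68 CPM in OSKM+B12, mostly Ly6c2, with S100a9 at 0 throughout. Lymphocyte genes stayed below 1 CPM in sum, with Cd3e, Cd3g and Cd8a at 0, and mast cell genes summed to at most 0.0769 CPM. Erythroid and fetal liver genes summed to at most 2.03 CPM, and 1 of the 4 tested, the embryonic globin Hbb-y, was called higher by edgeR in OSKM+B12 against MEF+B12. Hbb-y had 0 counts in the 6 uninduced libraries. It passed the filter on low counts only through induced libraries, so its call is a description. The induced libraries of clone 1 held 42 and 40 counts without and with B12, those of clone 2 held 61 and 73, and those of clone 3 held 0 and 2. Afp, the fetal liver alpha-fetoprotein gene, was called higher with B12 on average, by 1.16 on the log2 scale.

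The summed endothelial genes were higher in the induced libraries, and most of the sum was Tek (mean 38.7 of 45.7 CPM in MEF and 101 of 109 CPM in OSKM). The sum was 43.9 to 48.1 CPM in the uninduced libraries and 50.9 to 146 CPM in the induced ones. Tek, the angiopoietin receptor, was 38.4, 42.3 and 35.5 CPM in MEF and 139, 118 and 46.0 CPM in OSKM of clones 1, 2 and 3. Cdh5, the cadherin of endothelial junctions, was 1.02, 0.648 and 1.09 CPM in MEF and 3.00, 2.78 and 1.47 CPM in OSKM. Both had their smallest difference in clone 3, as Cd5l did. The log2 fold changes were 1.24 ± 0.29 and 1.36 ± 0.34 (adjusted p = 0.159 for each, edgeR). By edgeR 0 of the 4 endothelial genes tested passed in either induction, with 2 at an unadjusted p under 0.05 in each (19% and 14.9% of all genes), and DESeq2 called Cdh5 and Tek higher in both. Kdr and Egfl7 were also tested and were not higher without B12. Their means were 3.91 and 2.00 CPM in MEF and 3.89 and 1.77 CPM in OSKM. The part of these cell types in the Cd5l differences was not tested.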

How the data were processed

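The deposited files held raw counts per gene, made by the authors with STAR 2.5.2 and featureCounts (mm10, GRCm38), counting paired fragments by strand and summing flow cells. Genes were matched to Ensembl annotation (55480 of 55573). Counts were tested with edgeR 4.0.16 (R 4.3.3): filterByExpr by group (19174 genes kept), TMM scaling, a quasi-likelihood F test with clone as block and group, and Benjamini-Hochberg adjustment at 0.05. SE is the absolute log2 fold change divided by the square root of F. For log2 CPM the prior count was 2. DESeq2 1.42.0 was an alternative.

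The gene and the gene lists were chosen with earlier results of these data known. Named genes were Cd5l, the list members, the 2 nearest coding genes on each side and the 10 genes of most similar pattern (mean log2 CPM of at least 1). Motifs were searched in the 250 bases before each start. A gene of the transcription factor list is not reported here.

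Same-clone libraries, which the labels number, deviated together after group means were removed (r 0.270 to 0.687 in 18 pairs, against −0.510 to 0.170 in 36 pairs of other clones and groups), so clone was kept as the block. Each clone came from 1 embryo, by the study's methods. Intervals on counts cover counting error only.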

Additional observations from a re-analysis of the deposited data

How the results depend on the processing

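Under the alternatives tried, Cd5l stayed higher in both inductions (12 of 12 each, log2 fold changes of 2.16 to 2.91 and 1.94 to 2.51). The average B12 effect on Cd5l stayed positive in all 11 alternatives and lost its call in 3. It was 0.98 with no replicate block (adjusted p = 0.969, edgeR), 1.39 with the macrophage genes as a covariate (adjusted p = 0.745) and 0.94 without clone 2 (adjusted p = 0.330). With that covariate 0 of all genes tested passed, and without clone 2 it was 34, against 736 in the main fit. Leaving out each clone in turn gave 0.89 to 1.19, and leaving out the OSKM library of clone 1 gave 1.06 (adjusted p = 0.0230). The B12 effect passed in induced cells with no filter (0.81) and with only the libraries compared (0.83), and in uninduced cells likewise (1.20 and 1.18). Both effects use libraries of the comparison that chose the gene, so these passes are not independent of that choice. The causes were not tested.

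In the average B12 comparison 736 of all genes passed, 90 with no block and 34 to 525 on leaving out a clone. Of the 25 macrophage genes, 22 were higher with B12 on average, against 3 with no block and 1 to 22 on leaving out a clone. With their own mean as the covariate 0 of them passed, but that fit removes their shared rise and cannot test it. On induction 0 passed, against 0 to 4 without B12 on leaving out a clone (4 without clone 3), and, with B12, 2 by DESeq2, 3 with no filter and 0 to 3 on leaving out a clone. Of the 10 genes most like Cd5l, 2 (Slc5a6 and Ormdl2) were also among the first 10 with clone means kept. Over all genes, calls on induction ran from 0 with no block to 1322 without clone 3, and with B12 on both sides from 0 to 1004. The B12 calls ran from 0 to 388 in induced cells, 0 to 845 in uninduced cells and 0 to 934 on average. With 3 clones the ratio of Cd5l to the macrophage genes could not reach p below 0.25, and it stayed between 0.35 and 0.58.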
